A study of Mus musculus with 2 samples.

Results

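The 10 miRNA genes described here are Mir673, Mir493, Mir337, Mir540, Mir665, Mir431, Mir433, Mir127, Mir434 and Mir370. They lie on the proximal side of the imprinted Dlk1-Dio3 domain on mouse chromosome 12 and were taken by gene name, upstream of Mir379, the first gene of the distal cluster. They are 10 of the 1973 miRNA genes in the tables, and other genes of that side, such as Mir770 and Mir341, are not among them. The libraries were 2 biological replicates of small RNA (inserts below 30 nt) from midbrain of B6NCrl mouse embryos at embryonic day 16.5, an inbred strain, with males and females pooled in each. Replicate 2 was made from 37 embryos, and the number in replicate 1 is not given in the labels. There was 1 group and no treatment or genotype contrast, so the comparisons are between genes and between the libraries.

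In the Dlk1-Dio3 domain the paternal chromosome expresses protein-coding genes such as Dlk1 and Rtl1, and the maternal chromosome expresses long noncoding RNAs (Meg3, Rian, Mirg) together with most of the miRNAs. Rtl1 derives from a retrotransposon and is needed in the placenta. A maternal transcript runs antisense to it and carries miRNA hairpins, whose products are fully complementary to the Rtl1 mRNA and are known to guide its cleavage. In an inbred strain the parental alleles carry no differences by which reads could be assigned to one or the other.

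The members lie on the plus strand of chromosome 12 within 46347 bases (mm10, GENCODE M21). Mir673 (109571990 to 109572080) starts 263 bases past the annotated end of Meg3. Mir493 (109580233 to 109580315), Mir337 (109585789 to 109585885), Mir540 (109586080 to 109586146) and Mir665 (109586314 to 109586407) follow outside any annotated gene of their strand. Mir431 (109590447 to 109590537), Mir433 (109591715 to 109591838), Mir127 (109592846 to 109592915) and Mir434 (109594506 to 109594599) lie inside the coding sequence of Rtl1, on the strand opposite to it. Mir370 (109618258 to 109618336) lies 23658 bases beyond Mir434, in an intron of Rian.

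The mature sequences (RefSeq, GRCm38.p6) of the 4 members opposite Rtl1 are given first because these genes hold most of the members' reads. Sequences run 5′ to 3′, and capitals mark the seed, bases 2 to 8, through which a miRNA recognises most targets.
miR-127-5p: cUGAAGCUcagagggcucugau
miR-127-3p: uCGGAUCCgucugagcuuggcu
miR-434-5p: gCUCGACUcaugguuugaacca
miR-434-3p: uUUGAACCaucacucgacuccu
miR-431-5p: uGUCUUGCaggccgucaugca
miR-431-3p: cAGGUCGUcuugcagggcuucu
miR-433-5p: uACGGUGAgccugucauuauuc
miR-433-3p: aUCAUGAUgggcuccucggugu

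Each of these 8 sequences had 1 perfect complement in the Rtl1 transcript, as their position on the opposite strand requires, and the 12 mature sequences of the other 6 members had none. All 8 complements fell in the coding sequence. The site of miR-127-3p covers coding bases 2495 to 2516 of 5232 (chr12:109592888-109592909, minus strand), and that of miR-434-3p covers coding bases 818 to 839 (chr12:109594565-109594586, minus strand). They are shown as the Rtl1 mRNA reads in DNA letters, with the match to the seed in capitals.
Rtl1 site of miR-127-3p: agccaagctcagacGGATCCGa
Rtl1 site of miR-434-3p: aggagtcgagtgatGGTTCAAa

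The 20 mature sequences of the members had 20 distinct seeds, so no member shared a seed with another. Outside the members, 3 seeds were found in other mouse miRNAs of the RefSeq table. The seed of miR-673-5p was also found in Mir6985, that of miR-540-3p in Mir6915, and that of miR-370-5p in Mir1193, a gene further along the same domain. The last pair is shown because both genes come from 1 imprinted domain, together with the other arm of Mir370.
miR-370-5p: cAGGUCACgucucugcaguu
miR-1193-3p: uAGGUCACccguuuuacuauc
miR-370-3p: gCCUGCUGggguggaaccuggu

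The deposited counts are per hairpin gene and do not separate the arms. The hairpin of Mir127 is shown with its mature arms in capitals, since a count can hold either.
Mir127 hairpin: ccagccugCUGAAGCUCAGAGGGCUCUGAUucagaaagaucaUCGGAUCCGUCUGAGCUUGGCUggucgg

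Reads shared between hairpins could bias such counts, because the tables list reads that mapped to several places separately and not by gene. The longest run that a member shared with any hairpin outside its own place was 11 to 14 bases, below the shortest mature sequence of the members, 19 bases. Only exact runs in annotated miRNA hairpins were searched. Reads lost to inexact matches or to other places in the genome were not checked. The longest repeat inside a member was in Mir434, where 1 run of 13 bases is found at 2 places, shown in capitals.
Mir434 hairpin: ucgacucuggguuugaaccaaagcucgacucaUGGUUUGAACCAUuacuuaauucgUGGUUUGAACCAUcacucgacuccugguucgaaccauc

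Replicate 1 held 6151299 sense-strand reads on miRNA genes, against 5312642 in replicate 2. A level is a gene's reads per 1e6 of these (CPM). It is a share of counted reads, and no step here converted it to numbers of molecules. Reads mapping to several places, 35.3% of all reads in replicate 1 and 36.5% in replicate 2, were outside the counts. Of 10 brain marker genes 8 were detected (10 or more reads in both libraries), and the list held 5.07% of reads in replicate 1 and 5.08% in replicate 2, most of it from Mir149 (25498 CPM) and the neuronal Mir137 (15108 CPM). Against this, the brain markers of the mir-124 and mir-9 families had low counts, apart from Mir9-3 at 405 CPM. Mean levels were 5.04 CPM for Mir124a-1, 3.86 for Mir124a-2, 0.54 for Mir124a-3 and 1.34 for Mir9-2, below the muscle gene Mir206 at 17.95 CPM. Each family has more than 1 gene, and reads mapping to several places were outside the counts. These low counts therefore need not mean low levels of the mature miRNAs, and the loss was not tested. The endothelial and mesenchymal list held 2.95% in replicate 1 and 3.10% in replicate 2, and the blood, muscle, and liver and gut lists each held at most 0.0602%. The 6 genes of the epithelial list, all detected, held 0.129% in replicate 1 and 0.0662% in replicate 2. Their median log2 ratio, replicate 1 over replicate 2, was 2.47, with Mir203, the most abundant, at 0.20 and the other 5 between 1.48 and 3.03. The part of that gap in the members' differences was not tested.

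All 10 members were detected, while 411 of all 1973 genes were. Their summed share of all sense-strand reads was 2.15% for replicate 1 (2.14 to 2.16, a 95% Wilson interval) and 2.22% for replicate 2 (2.21 to 2.23), or 2.18% ± 0.048 (SD, n = 2). Intervals cover counting error only. The 4 members opposite Rtl1 held 83.5% of the members' reads in replicate 1 and 84.1% in replicate 2. In both libraries each of these 4 stood above each of the other 6 in CPM, though per base of hairpin Mir433 came below Mir370. This split holds for the listed members only. Mir432, not a member but also opposite Rtl1, had 0 reads in both libraries. Mir770, inside the span of Meg3, stood below Mir433 in replicate 1 (1402 against 1692 CPM) and above it in replicate 2 (1852 against 1833).

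Mir127 led the members, with 58589 reads in replicate 1 and 56723 in replicate 2. These came to 9525 CPM for replicate 1 (9448 to 9602) and 10677 CPM for replicate 2 (10590 to 10765), a mean of 10101 ± 815 (SD, n = 2). It was rank 18 of the 411 detected genes in each library and made up 44.3% of the members' reads in replicate 1 and 48.1% in replicate 2. A single hairpin thus held more of the members' reads than the other 3 members opposite Rtl1 together.

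Mir434, the nearest of the 4 to the Rtl1 start codon, had 3622 CPM in replicate 1 against 3448 CPM in replicate 2, with a mean of 3535 ± 123 (SD, n = 2). Mir431, known in rodents for a role in axon growth of sensory neurons, had 3126 CPM in replicate 1 against 2703 in replicate 2, with a mean of 2914 ± 300. Mir433 was the lowest of the 4, with 1692 CPM in replicate 1 against 1833 in replicate 2 and a mean of 1762 ± 100. Mir127 thus had 2.86 times the mean CPM of Mir434, the next in the order.

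Mir370, alone in the intron of Rian, had 1370 CPM in replicate 1 against 1492 CPM in replicate 2. It was next in the order after Mir433 and the most abundant member that is not opposite Rtl1. Mir337 had 1167 CPM in replicate 1 against 1107 in replicate 2. Its neighbour Mir540, 194 bases on, had 505 CPM in replicate 1 against 449 in replicate 2. Mir665, a further 167 bases on, had 353 CPM in replicate 1 against 346 in replicate 2. These hairpins lie within 1 short stretch, yet the first had 2.38 times the mean CPM of the second. The second had 1.36 times that of the third. Mir673 had 104 CPM in replicate 1 against 100.1 in replicate 2. Mir493 was the lowest member, with 42.1 CPM in replicate 1 (259 reads) against 35.2 in replicate 2 (187 reads), so the members spanned 261-fold.

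**Figure D1:**
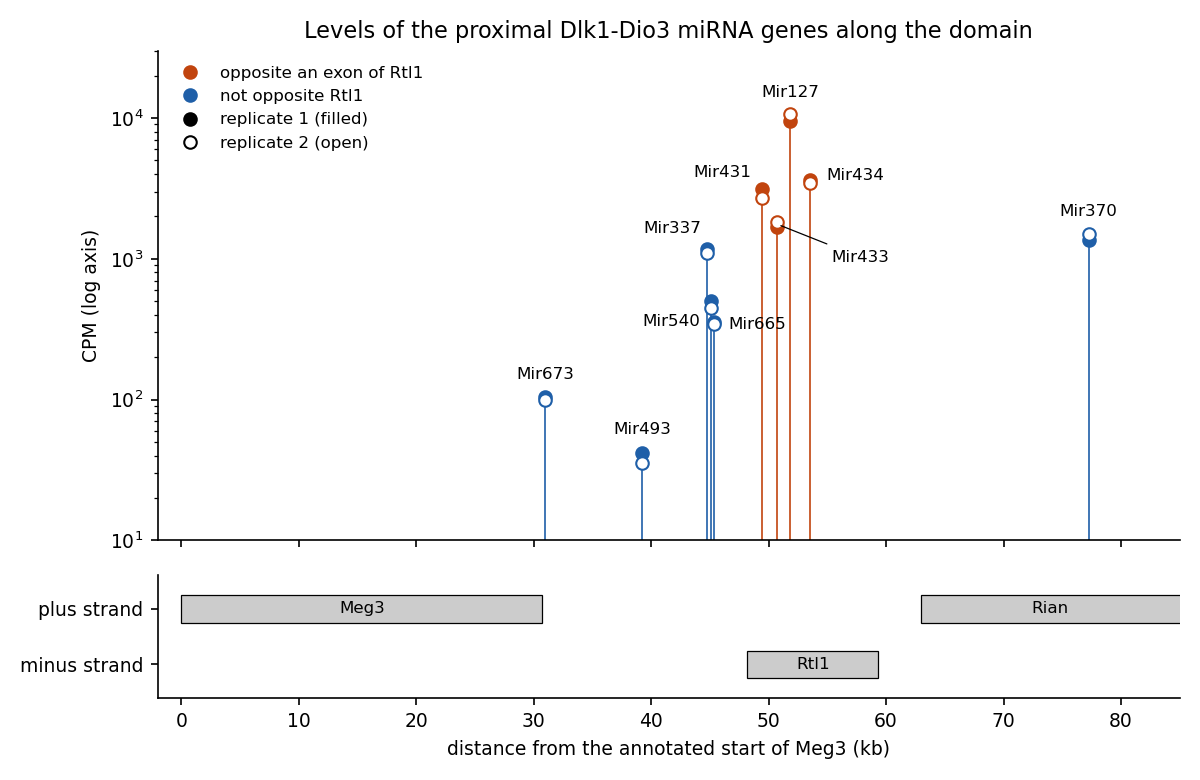
Levels of the 10 miRNA genes (CPM, log axis) against their distance from the annotated start of Meg3 in kb, with replicate 1 as filled and replicate 2 as open circles and the annotated spans of Meg3, Rtl1 and Rian below. Of the 10, the genes opposite Rtl1 form the high group around Mir127, Mir673 and Mir493 near Meg3 are lowest, and the circles of the libraries nearly coincide.

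In order of mean CPM the members ran Mir127, Mir434, Mir431, Mir433, Mir370, Mir337, Mir540, Mir665, Mir673 and Mir493. The 2-library ranges of neighbours in this order did not overlap in any of the 9 pairs. The narrowest gaps were those of Mir434 over Mir431 (1.21-fold) and Mir433 over Mir370 (1.23-fold). Between genes no test was run, since 2 values set against 2 allow an exact permutation test no two-sided p under 0.333. An insert holds a whole mature miRNA, so counts were not divided by hairpin length. Dividing by it, a choice made after seeing the data, placed Mir370 above Mir433, 1.28-fold, and left the other neighbours in the same order.

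Across the 10 members, level was higher with distance from the start of Meg3 (Spearman's rho 0.79, Pearson's r of log2 CPM 0.56). With hairpin GC content rho was -0.079, with hairpin length 0.043 and with the computed folding energy 0.54, where less stable hairpins stood higher. These are descriptions over 10 genes of 1 locus measured in the same 2 libraries, with no test. Further same-strand miRNA genes of the stretch, given under other observations, were left out of them. Mir770, nearer to the start of Meg3 than any member, had a mean of 1627 CPM, which breaks the order by distance. The other genes left out were not set against distance.

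Set beside the rest of the series, 8 of the 10 members stood above the median of all 411 detected genes. Among the 100 most abundant of these 411 were 6 members. The median was 1284 CPM over the members, 540 CPM over the 28 detected genes of those listed for the distal cluster and 108 CPM over all 411 detected genes. The members' summed reads were 0.248 times those of the distal cluster in replicate 1 and 0.243 times in replicate 2, as the distal cluster held 8.66% of reads in replicate 1 and 9.12% in replicate 2. Mir487b, at 41396 ± 2594 CPM, was the 1 distal gene above Mir127, and Mir544, at 21.5 ± 1.74 CPM, the 1 detected distal gene below Mir493. Mir369 (9792 ± 1476) and Mir382 (8331 ± 324) followed Mir487b. Mir758 stood at 40.9 ± 0.33 CPM, and Mir654 and Mir453 had 0 reads, which allows up to 0.488 CPM in replicate 1 and 0.565 CPM in replicate 2. Of the 31 genes listed for that cluster 30 were analysed here. Mir666 (118 ± 13.3 CPM) lies in the same stretch and is not on the list. Over the 29 detected same-strand genes taken by position from Mir379 to Mir410, a choice made after seeing the data, the median was 439 CPM. The proximal side was not retaken by position. That would add, among others, Mir770 (1627 CPM), above the members' median, and Mir341 (831), Mir1188 (10.1) and Mir3070a (3.39), below it. No test of these differences in level was made.

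**Figure D2:**
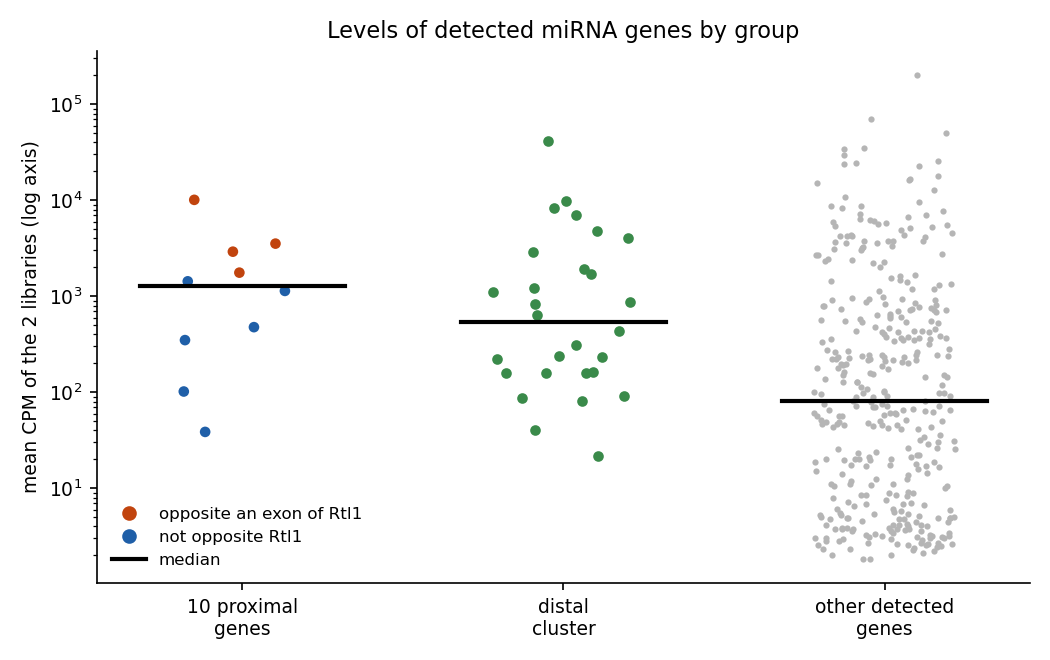
Mean CPM of the 2 libraries (log axis) for each detected gene, by group, with a black bar at the median and random sideways scatter. The 10 proximal genes have a median of 1284 CPM and the 28 distal genes one of 540 CPM. They run between 38.7 and 10101 CPM and between 21.5 and 41396 CPM.

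Of 5 imprinted miRNA genes outside the domain, Mir335, in an intron of Mest, stood at 49755 ± 3034 CPM, above every member. Mir296 (3741 ± 494) and Mir298 (3316 ± 414), of the Gnas locus, were close to Mir434 and Mir431. Mir483, in an intron of Igf2, stood at 100.9 ± 16.0 CPM, near Mir673. Mir675, which is cut from the H19 RNA, stood at 4.90 ± 1.34 CPM, below every member.

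The genes nearest to Mir127 in level over the 2 libraries were Mir23b, Mir369 and Mir30a, at Euclidean distances of 0.101, 0.124 and 0.218 in log2(CPM + 1). Of these, Mir369 is in the distal cluster of the same domain. With 2 libraries the measure reflects level almost alone.

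Between the libraries, 7 of the 10 members differed by a two-sided exact binomial test of their reads with Benjamini-Hochberg adjustment over all detected genes, against a background of 47.4% of the 411 detected genes. Such a test sets 1 library against the other and not 1 condition against another. As it allows for counting error alone, deeply counted genes pass at small folds. Higher in replicate 1 were 4 members (29.2% of all detected genes) and higher in replicate 2 were 3 (18.2%). The members' median log2 ratio, replicate 1 over replicate 2, was 0.06, the same as that of all detected genes to this precision. Their median size of ratio was 0.12, against 0.10 over the detected distal cluster and 0.18 over all detected genes. The latter were counted less deeply, with a median of 108 CPM against 1284 for the members. The detected distal cluster had a median of 540 CPM. The part of depth in these sizes of ratio was not tested. The exact test of edgeR, run with the biological coefficient of variation set to 0.2 to stand for spread between pools, passed 0 members, and 0 had an unadjusted p under 0.05 (1.46% and 1.95% of all detected genes).

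Mir431 was 1.16-fold higher in replicate 1 (log2 ratio 0.21, 95% counting interval 0.18 to 0.24, adjusted p = 4.81e-39 by the exact binomial test). Mir540 was 1.13-fold higher in replicate 1 (0.17, adjusted p = 4.24e-05 by the same exact test). Mir337 and Mir434 were also called higher in replicate 1, at log2 ratios of 0.08 and 0.07. Those calls were lost with TMM scaling (adjusted p = 0.43 and 0.204, exact binomial test).

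Mir127 was lower in replicate 1, with a log2 ratio of -0.16 (-0.18 to -0.15) and an adjusted p of 2.23e-82 by the exact binomial test. Mir433 had a log2 ratio of -0.12 and Mir370 one of -0.12, both called by the same test. Mir673 (0.05), Mir493 (0.26) and Mir665 (0.03) did not pass. Mir493 had the fewest reads of the members, and its counting interval ran from -0.02 to 0.54. Its ratio was the farthest from 0 with total-count scaling, whereas with TMM scaling that of Mir127 was, at -0.213 against 0.209 for Mir493.

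Neighbours opposite Rtl1 therefore lay on both sides of 0. Mir431 and Mir433 are 1177 bases apart, and reads of Mir431 over those of Mir433 were 1.85 in replicate 1 and 1.47 in replicate 2. Reads of Mir127 over those of Mir431 were 3.05 in replicate 1 and 3.95 in replicate 2. These quotients within a library do not depend on the scaling. No test of the quotients was made.

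**Figure D3:**
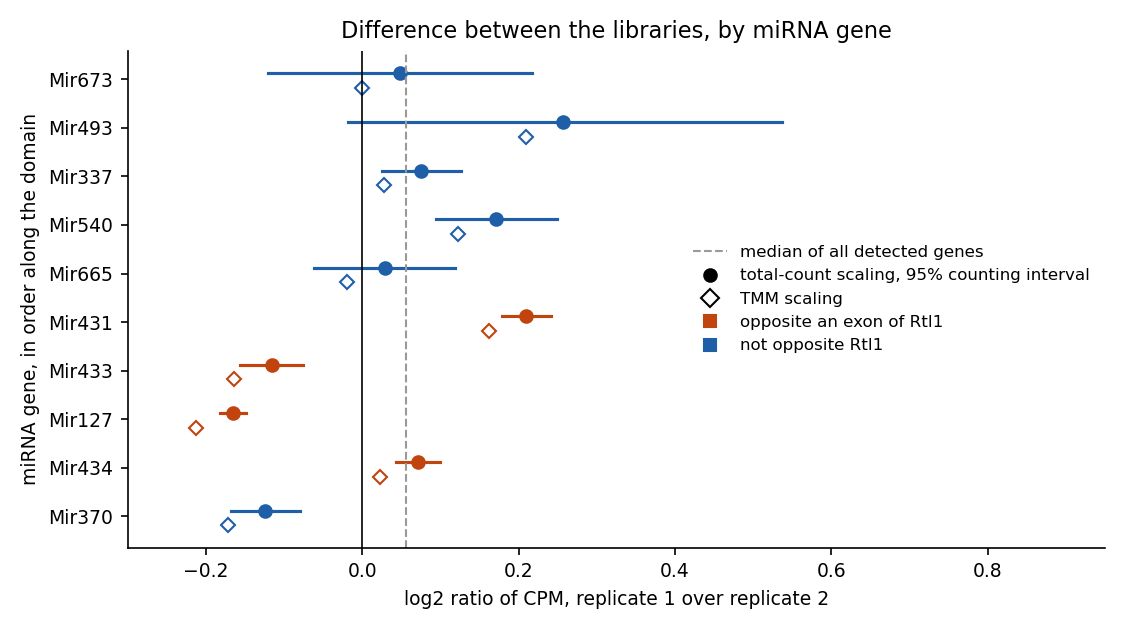
Log2 ratio of CPM, replicate 1 over replicate 2, for each member in its order along the domain, as filled circles with 95% exact counting intervals, and with TMM scaling as open diamonds. The dashed line marks the median of all detected genes, 0.06, and Mir433, Mir127 and Mir370 lie below 0 under both scalings.

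**Figure D4:**
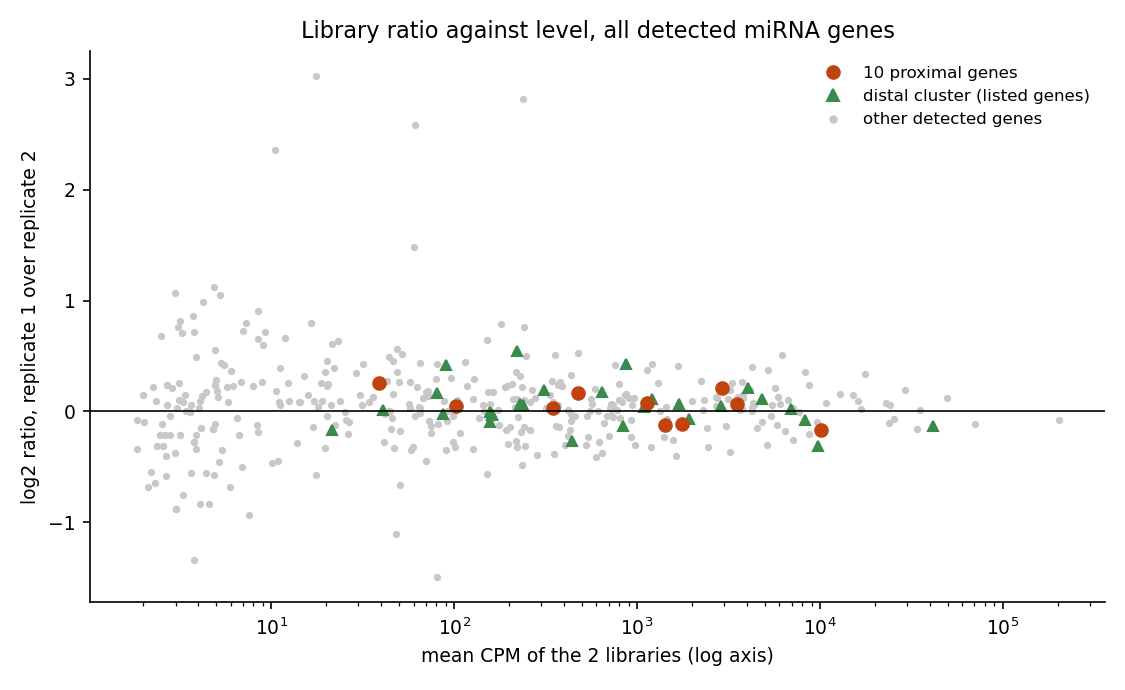
Log2 ratio, replicate 1 over replicate 2, against mean CPM (log axis) for the 411 detected genes, with the 10 proximal genes as circles and the distal cluster as triangles. The proximal genes lie between -0.16 and 0.26 and the distal cluster between -0.31 and 0.55, against -1.50 to 3.03 over all detected genes.

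In the distal cluster the exact binomial test called 16 of the 28 detected genes, 10 of them higher in replicate 1, and the median log2 ratio was 0.03. Its ratios ran from -0.31 for Mir369 to 0.55 for Mir494. Mir1193, which shares a seed with miR-370-5p, had 995 CPM in replicate 1 and 741 CPM in replicate 2, a log2 ratio of 0.43, whereas that of Mir370 was -0.12.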

How the data were processed

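For each library the authors deposited a table of raw counts for miRNA genes, on mm10 with GENCODE annotation M4, per the description files deposited with them. The aligner, counter and adapter trimming are not given in the sources used here. Columns held either-strand, sense and opposite counts. Rows that name no gene (54.9% of reads in replicate 1, 55.8% in replicate 2) were left out. Identifiers were matched to GENCODE M21 names on the same assembly (1894 of 1973), and all 10 members to RefSeq sequences. Sense counts were divided by their total (CPM). Ratios had 0.5 reads added. The exact binomial test (adjusted p under 0.05) ran over all detected genes and was tested on simulated data. The simulated counts held counting error only, which is what the test assumes. They therefore cannot show how it behaves with spread between pools. TMM and RLE factors and the fixed-variation test came from edgeR 4.0.16 (R 4.3.3). The variation in that test was assumed and not estimated from these data, so its outcome rests on the value set. RNAfold 2.7.2 gave folding energies, and Python 3.11.15, scipy 1.17.1 and matplotlib 3.10.9 the rest. SD is over 2 libraries, whose pools are labelled as biological replicates.

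The members and lists were chosen with earlier results of these data known. The naming rule took all members, the 3 highest and 3 lowest genes of the distal cluster, the listed imprinted genes elsewhere and the 3 genes nearest to the highest member. Mir758, Mir1193, Mir494 and Mir666 were also named, after their values were seen, as were marker genes. The brain, blood, endothelial, epithelial, muscle, and liver and gut lists of marker genes are each given once by their share. Some genes of the domain are not analysed here. Alternatives were scaling, strand, the read minimum, the test, each library alone and division by hairpin length.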

Additional observations from a re-analysis of the deposited data

Results flagged for a closer look

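Reads on the strand opposite a member were used in no comparison. They were above the limit that a count of 0 allows (3 reads) at Mir337, with 38 reads in replicate 1 and 11 in replicate 2, or 0.527% and 0.187% of the reads at its place. The other 9 members had 0 opposite reads in each library. GENCODE M21 places Mir3544 on the opposite strand within the span of Mir337, and Mir3544 was not analysed here.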

How the results depend on the processing

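All 10 members stayed detected under each read minimum and strand setting and in each library alone, and their share of reads ran from 2.15% to 2.22% over the single libraries and was 2.13% with counts on either strand. With edgeR's exact test at the fixed coefficient of variation 0 members and 6 genes in all differed between the libraries, against 7 and 195 by the exact binomial test. With TMM and RLE scaling 5 members differed, and the members' median log2 ratio was 0.01. The ratio of Mir673 turned to -0.00014 with TMM and -0.00028 with RLE, and that of Mir665 to -0.020 with each, none of which passed the test before or after. The calls of Mir337 and Mir434 were lost under both. Neighbours in the order of level were apart in 9 of 9 pairs under each scaling, with counts on either strand and per hairpin length. No paired analysis was possible because the libraries form 1 group. Depth limits Mir493 and Mir673 most, with 187 to 637 reads.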

Other observations

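Among 9 further same-strand miRNA genes of the tables between the start of Meg3 and the distal cluster, chosen by position after their values were seen, Mir770 and Mir341 reached the levels of the members. Mir770, inside the span of Meg3, had 1402 CPM in replicate 1 against 1852 CPM in replicate 2, between Mir433 and Mir370 in mean level. Its log2 ratio of -0.40 (adjusted p = 1.81e-78, exact binomial test) was farther from 0 than that of any member. Mir341, inside the span of Rian, had 857 CPM in replicate 1 against 806 in replicate 2. Mir1188 (8.45 CPM in replicate 1, 11.7 in replicate 2) and Mir3070a (3.58 CPM in replicate 1, 3.20 in replicate 2) lay below every member, and Mir432, which is also opposite Rtl1, had 0 reads in both libraries.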
